A study of Rattus norvegicus with 9 samples.

Results

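The cytosolic ribosomal protein genes were examined in cultured rat vascular smooth muscle cells. They were taken as the symbols that begin with Rpl, Rplp or Rps followed by the number of a ribosomal protein, together with Rpsa, without the ribosomal protein kinases and the mitochondrial ribosomal proteins, whose level averaged 1 FPKM or more across all 9 libraries. FPKM is a read level scaled to transcript length and to the size of the library. The names matched 138 rows and 89 symbols of a table of 26407 rows, and 79 symbols passed, 37 of the small and 42 of the large subunit. Where a symbol had several rows, the row with the highest mean stood for it. Of the 79 genes, 71 belong to the standard mammalian set. The other 8 include Rpl22l1, Rpl7l1, Rps27l, Rps27l2, Rps27l3, Rps10l1 and Rps19l1. Of the standard set, Fau carries another name and lay outside the rule, at a mean of 1435 FPKM, and Rpl7a and Rpl28 were not analysed here. The 10 symbols under 1 FPKM were Rpl21, Rpl35a, Rpl36a, Rpl39, Rpl3l, Rpl10l, Rpl31l3, Rpl34l1, Rpl39l and Rps4y2. Nearest to the threshold, Rpl35a had a mean of 0.248 FPKM outside it, and Rps19l1 had 1.07 and Rps27l3 1.40 FPKM inside it.

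Ribosomal proteins and ribosomal RNA form the small subunit, which reads the mRNA, and the large subunit, which joins amino acids and passes the new chain through an exit tunnel. Ribosomal protein mRNAs are among the most abundant in dividing cells. In mammals most begin with a C followed by a run of C and T letters, the terminal oligopyrimidine (TOP) tract, through which mTORC1 and the RNA-binding protein LARP1 control their translation. Growth factors such as PDGF and IGF-1 act on mTORC1 and on S6 kinase, whose best known substrate is ribosomal protein S6. RNA levels in whole cells do not measure that translational step.

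The S31 cells are wild-type primary vascular smooth muscle cells from the cardiac microvessels of male Wistar Kyoto rats, and all were starved of serum for 48 h. The table has 3 columns each named PDGF-NS, IGF-NS and LH-NS. The sample records that name the PDGF-NS columns give recombinant human IGF-1 at 25 ng/ml and harvest at 24 h. The records that name the IGF-NS columns give recombinant rat PDGF-BB at 25 ng/ml and harvest at 48 h. The LH-NS columns are controls in fresh serum-free medium, harvested at 24 h. Columns and records therefore contradict each other for both factors, no value was used to settle this, and each set goes by its column name here. No control at 48 h was used here, so for the set harvested at 48 h factor and time cannot be told apart. The libraries are not said to come from separate cultures, so p-values measure the spread between these libraries, which may be technical.

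The annotated starts of the transcripts were searched for such a tract. The RefSeq promoter table (GRCr8) held 60 of the 79 genes. The windows run from 10 bases before to 20 bases from the annotated start, and capitals mark a run of at least 5 C or T letters, counted from its first C on the gene's own strand, that covers the start or begins within 5 bases of it. In Rpl34 the run begins before the window, so only its part inside the window is shown. The first 6 windows belong to genes called below and Rplp0 to one that was not. The paralogue pair Rpl22l1 and Rpl22 and the S6 kinase substrate Rps6 follow.
Rpl10 (chrX:157205840-157205869, plus strand): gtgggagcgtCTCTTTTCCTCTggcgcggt
Rpl12 (chr3:36661930-36661959, plus strand): aacatccgtCTTTTCggctttcggttcgga
Rpl17 (chr18:70856266-70856295, plus strand): ttcgcgCTTCCTCTTCCTgttagcggccag
Rpl34 (chr2:221962264-221962293, minus strand): TCCTTTTCCTCTTCCggggacggtgcttag
Rps21 (chr3:187724028-187724057, plus strand): agccaCTTCCTTTCTgtgttctccgtagac
Rps24 (chr16:96507-96536, plus strand): ggtCCTCTTTTCCTCCTTTacagctcgggc
Rplp0 (chr12:46718371-46718400, minus strand): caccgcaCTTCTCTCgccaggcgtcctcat
Rpl22 (chr5:168117951-168117980, plus strand): gcgCCCCCCTCCCTTTCTgcctcctctgcc
Rpl22l1 (chr2:113683186-113683215, plus strand): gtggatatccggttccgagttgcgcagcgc
Rps6 (chr5:106420521-106420550, minus strand): ctcctaggcggtcggctgtgtcaagatgaa
Such a run stood at 37 of the 60 starts (61.7%), against 16.6% of all 27457 promoters in the table. A C on the annotated start itself, followed by C or T up to the fifth letter or beyond, stood at 21 of the 60 (35.0%), against 2.63% of all. The run was present at 10 of 17 genes called higher in PDGF-NS than in LH-NS (58.8%) and at 27 of 43 not called (62.8%). In the windows of Rpl22l1, Rps27l, Rps6 and Rpl41 there was no such run. A run is a description of these letters, and an annotated start can lie away from the start used in these cells. A window without a run therefore does not show that the mRNA lacks the tract.

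Before any comparison, 2 libraries stood apart in these genes. The share of summed FPKM held by the 79 genes was 15.8%, 15.0% and 16.2% in the PDGF-NS libraries, 16.2%, 15.5% and 13.0% in the IGF-NS libraries, and 12.7%, 14.6% and 14.2% in the LH-NS libraries. IGF-NS library 3 and LH-NS library 1 were the lowest of their sets and of all 9. LH-NS library 1 lay below the mean of the other 2 controls for 63 of the 79 genes, with a median log2 difference of -0.45. IGF-NS library 3 lay below the other 2 of its set for 58 genes, with a median of -0.27. Over all 11376 genes tested the same medians were 0.01 and 0.04. Both libraries were low for 55 genes and both high for 13. Across the 79 genes the 2 sets of differences had a Pearson correlation of 0.68 and a Spearman correlation of 0.79, against 0.34 and 0.48 across all genes tested, as a description, since genes within a library share its preparation and depth.

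**Figure D1:**
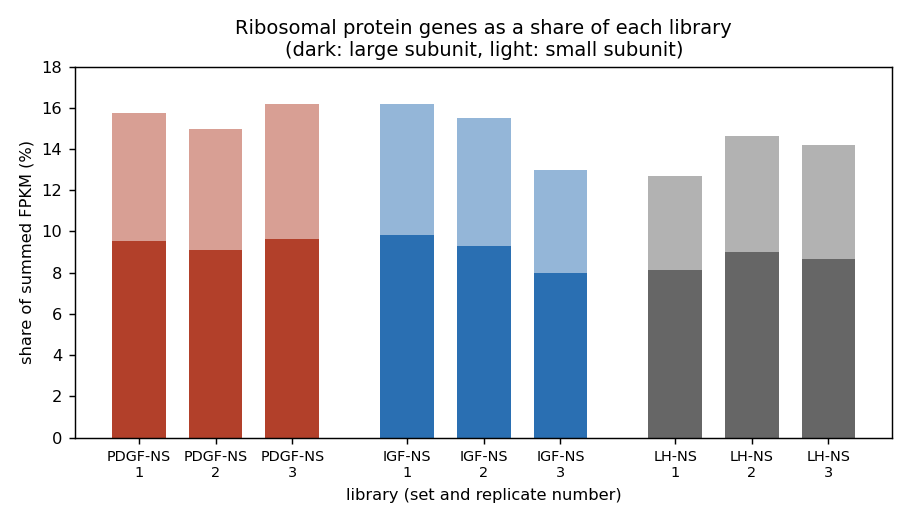
Share of each library's summed FPKM held by the 79 ribosomal protein genes (y axis, percent), with the large subunit in the dark and the small subunit in the light part of each bar, for the PDGF-NS, IGF-NS and LH-NS libraries. IGF-NS library 3 at 13.0% and LH-NS library 1 at 12.7% are the lowest bars.

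**Figure D2:**
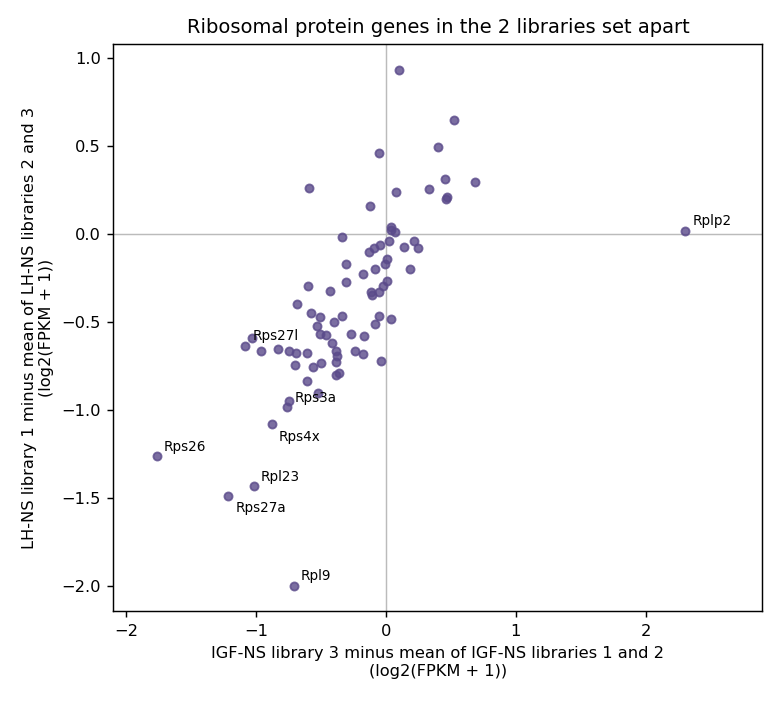
Each point is 1 ribosomal protein gene. The x axis gives IGF-NS library 3 minus the mean of the other 2 IGF-NS libraries and the y axis LH-NS library 1 minus the mean of the other 2 LH-NS libraries, both as log2(FPKM + 1), and 55 of the 79 points lie below 0 on both axes.

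Rps26, Rps27a and Rpsa show the pattern by library. Rps26, a small subunit protein at the mRNA exit, had 146, 126 and 133 FPKM in PDGF-NS, 137, 313 and 60.0 FPKM in IGF-NS, and 48.7, 121 and 115 FPKM in LH-NS. Rps27a, which is made as a fusion with ubiquitin, had 616, 439 and 636 FPKM in PDGF-NS, 552, 792 and 284 FPKM in IGF-NS, and 182, 498 and 529 FPKM in LH-NS. In both genes IGF-NS library 3 and LH-NS library 1 were by far the lowest of their sets. Rpl9, Rpl23 and Rps4x had the same order. Rpsa, the laminin receptor protein of the small subunit, went the other way, with 704, 759 and 724 FPKM in PDGF-NS, 928, 578 and 787 FPKM in IGF-NS, and 1489, 752 and 809 FPKM in LH-NS. Relative depth was taken as the most common ratio of low values in LH-NS library 1, the reference set at 1, to those in each library. It was 0.96, 1.33 and 1.27 in PDGF-NS, 1.09, 0.72 and 1.16 in IGF-NS, and 1, 0.66 and 0.78 in LH-NS. In each set the deepest library also had the lowest median of these genes around the set's mean. The part of depth in these differences was not tested. The counts below are therefore also given without these 2 libraries, an alternative chosen after seeing the data.

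Of 12 smooth muscle markers, 11 had a mean of at least 1 FPKM. The other, Myh11, averaged 0.654 FPKM in PDGF-NS, 0.405 FPKM in IGF-NS and 1.77 FPKM in LH-NS. The 12 summed to 1101 to 1261 FPKM in PDGF-NS, 1184 to 1292 FPKM in IGF-NS and 4069 to 5547 FPKM in LH-NS. Tagln, with means of 211, 358 and 2105 FPKM in that order of sets, and Tpm2, with 732, 550 and 1604 FPKM, made up most of it. Des was highest in PDGF-NS (5.18, 0.301 and 1.51 FPKM) and Synpo2 in IGF-NS (2.92, 5.74 and 3.67 FPKM), the rest in LH-NS. Of the endothelial markers Cdh5, Kdr and Emcn were listed at 0 in every library, as were the cardiomyocyte markers Myh6 and Myh7, the leukocyte marker Ptprc and the glial marker Sox10. Genes that most cells use, such as Eif1ax, Eif2s3 and Rpl39, were also listed at 0 in every library, so a listed 0 does not show absence. Of the 8 endothelial markers, 1 reached a mean of 1 FPKM across the 9 libraries, Erg, with 4.85 FPKM in PDGF-NS, 2.96 FPKM in IGF-NS and 7.98 FPKM in LH-NS on average. The 8 summed to 3.90 to 6.45 FPKM in PDGF-NS, 1.71 to 4.26 FPKM in IGF-NS and 7.59 to 9.19 FPKM in LH-NS. Of the 7 cardiomyocyte markers, 1 reached that mean, Tnnt2, with 2.68 FPKM in PDGF-NS, 12.0 FPKM in IGF-NS and 15.0 FPKM in LH-NS on average. The 7 summed to 1.96 to 5.33 FPKM in PDGF-NS, 8.66 to 19.8 FPKM in IGF-NS and 10.6 to 23.2 FPKM in LH-NS, so the PDGF-NS libraries lay below both other sets. Fibroblast markers, which cultured smooth muscle cells also express, summed to 2765 to 3385 FPKM in PDGF-NS, 4767 to 6119 FPKM in IGF-NS and 2741 to 3983 FPKM in LH-NS, and Col1a1 made up most of that sum, with means of 2018, 3526 and 2877 FPKM in the same order of sets. The other 4 at 1 FPKM or more had their lowest means in LH-NS. In that order Lum averaged 1064, 1795 and 340 FPKM, Pdgfra 27.9, 21.5 and 11.4 FPKM, Dcn 21.8, 117 and 11.4 FPKM, and Dpt 14.0, 2.26 and 0.417 FPKM. Macrophage and leukocyte markers summed to 43.6 to 89.5 FPKM, 22.6 to 30.8 FPKM and 17.7 to 27.0 FPKM in the same order of sets. Most of that sum was Cd14, with means of 59.7, 26.3 and 23.5 FPKM, while Cd68 averaged 4.30, 0.340 and 0.208 FPKM. The part of other cell types in the results below was not tested. In bulk RNA fewer cells of a type and less RNA per cell cannot be told apart.

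In level, these genes were far above the typical gene. Their median was 461 FPKM, against 13.2 FPKM over all genes tested, with 23 genes at 1000 FPKM or more, 37 from 100 to 1000, 11 from 10 to 100 and 8 under 10. Rpl41, the shortest ribosomal protein, led with a mean of 12585 FPKM, followed by the stalk protein Rplp0 with 10849, Rps13 with 6744 and Rps29 with 5500 FPKM, while Rps15 had 4584 FPKM. At the other end stood Rplp2 with 2.67, Rps14 with 5.65, Rps19 with 6.29 and Rpl22 with 7.14 FPKM, although most of these are core proteins of which each ribosome carries a copy. Rat ribosomal protein genes have many near-identical processed copies, 26 of the 79 symbols had more than 1 row here, and how reads were split between copies is not given in the sources used here, so a level is uncertain for each of them.

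PDGF-NS cells had more RNA of many ribosomal protein genes than LH-NS cells. In limma's test with Benjamini-Hochberg adjustment over all genes tested, 23 of the 79 rose in PDGF-NS and 0 fell, while 20.7% of all genes tested rose and 10.2% fell. The share of the 79 was 29.1%. The median log2 difference was 0.48, against 0.13 over all genes tested, and it was positive for 73 genes. Both subunits contributed, with 12 of 37 genes of the small and 11 of 42 of the large subunit. Scaling the libraries by median ratios moved the median of all genes to 0.01 and left 17 of the 79 higher and 0 lower, with a median of 0.35, and turned the calls over all genes to 1768 higher and 1678 lower from 2355 higher and 1166 lower. Without the 2 libraries that stood apart, 24 were higher and 1, Rpl13, was lower, with a median of 0.29. Over all 11376 genes tested, 2491 were then higher and 1227 lower, with a median of 0.12. IGF-NS library 3 enters this comparison only through the shared estimate of the spread. Without LH-NS library 1 alone, 17 of the 79 were higher and 0 lower, against 2115 higher and 1023 lower of all genes tested. The medians were then 0.29 and 0.12.

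**Figure D3:**
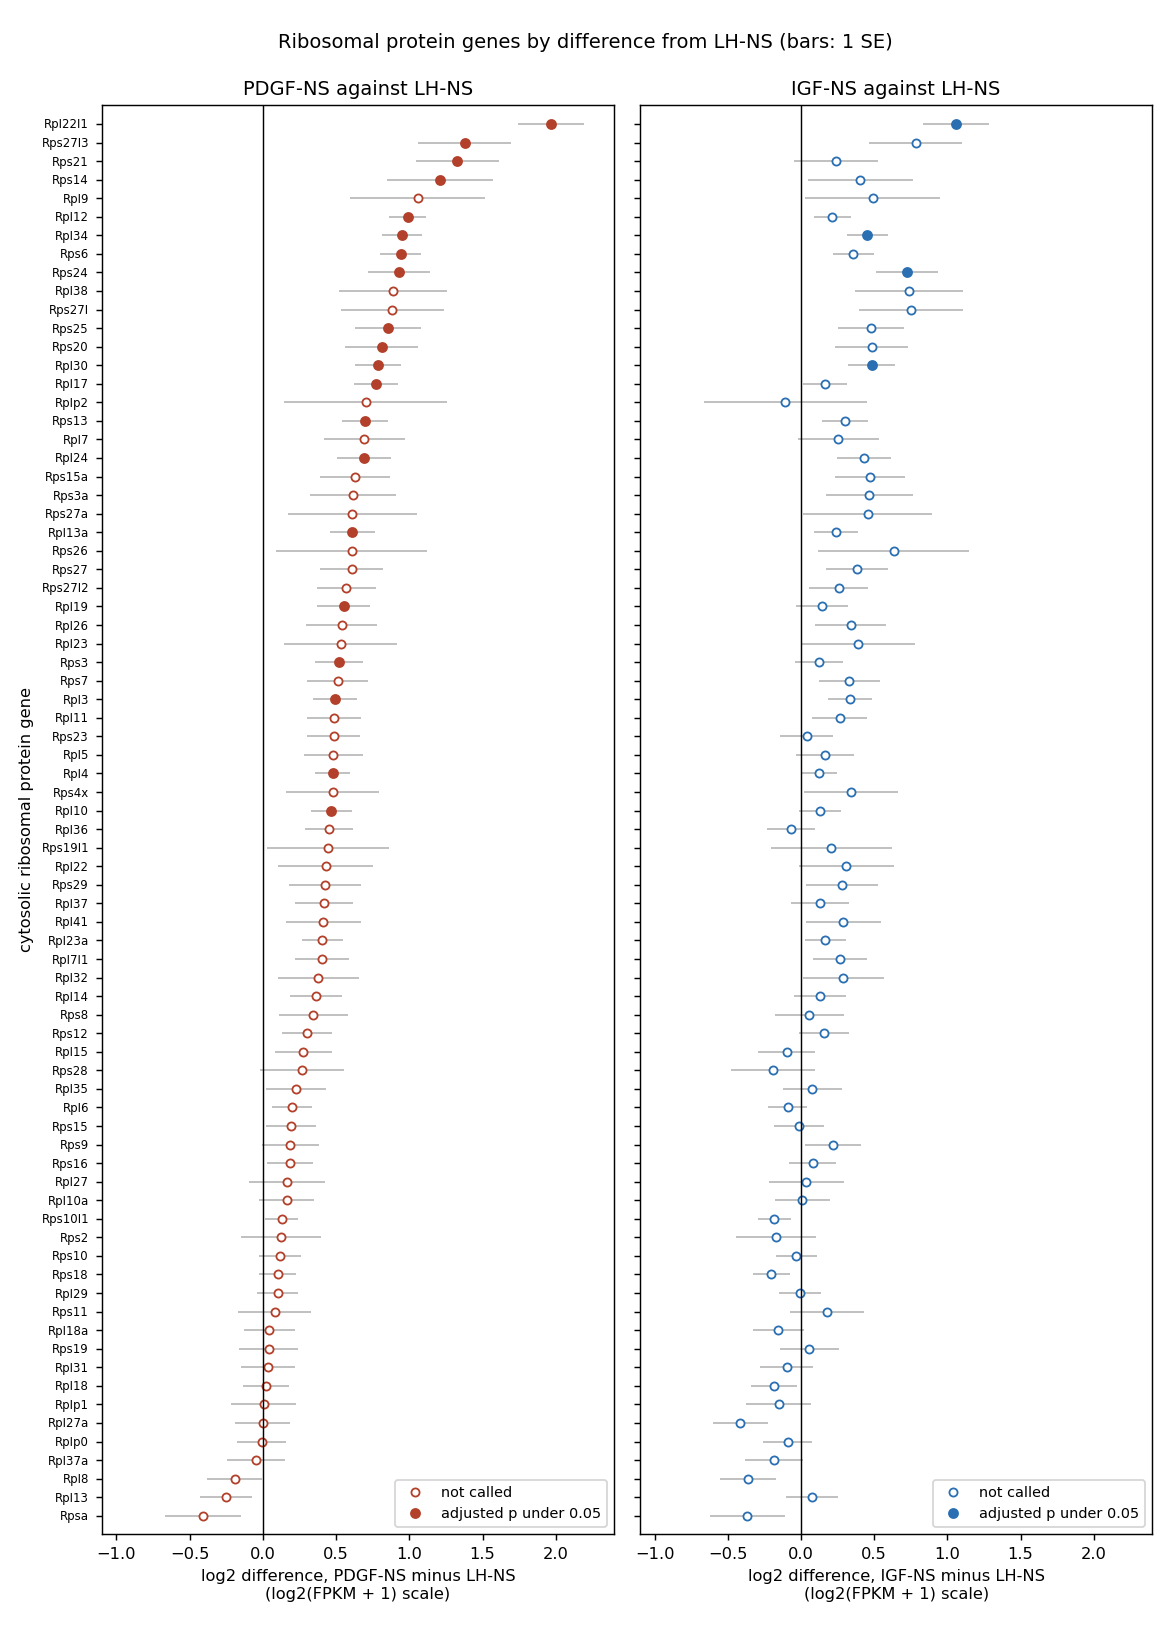
Log2 differences of 76 of the 79 genes (y axis, ordered by PDGF-NS minus LH-NS) for PDGF-NS minus LH-NS on the left and IGF-NS minus LH-NS on the right, with 1 SE, filled where the adjusted p is under 0.05. On the left 20 of the points shown are filled and all lie right of 0, and on the right 4 are filled.

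**Figure D4:**
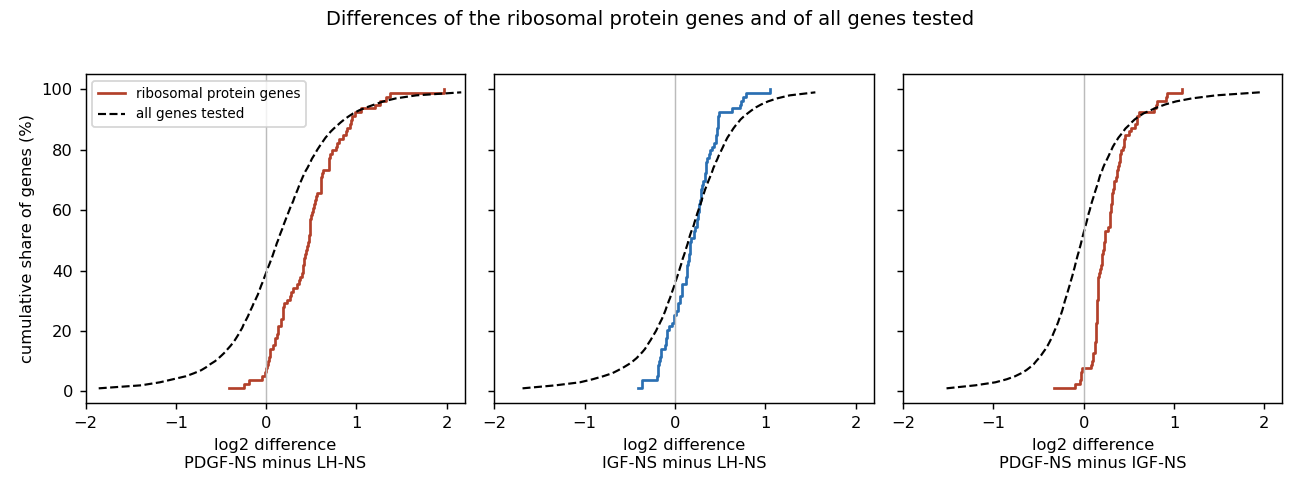
Cumulative share of genes (y axis, percent) against the log2 difference (x axis) in the 3 comparisons, for the 79 ribosomal protein genes (coloured lines) and all 11376 genes tested (dashed lines). The median of the ribosomal protein genes lies at 0.48 in the first panel, 0.18 in the second and 0.23 in the third.

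The largest rise was that of Rpl22l1, a paralogue of the large subunit protein Rpl22, which in mice is known to hold down the paralogue's RNA. It had 214, 160 and 231 FPKM in PDGF-NS, 89.7, 126 and 104 FPKM in IGF-NS, and 35.7, 59.3 and 59.5 FPKM in LH-NS. The 3 sets did not overlap, with PDGF-NS highest and LH-NS lowest. The log2 difference of PDGF-NS from LH-NS was 1.97 ± 0.22 (SE), a 3.92-fold higher mean, with adjusted p = 0.000155. Rpl22 itself, with means of 8.00 ± 1.79, 7.34 ± 1.99 and 6.08 ± 3.06 FPKM in PDGF-NS, IGF-NS and LH-NS (SD, n = 3 each), did not pass the test (adjusted p = 0.343).

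Among the other large subunit genes, Rpl12, which lies at the base of the stalk where elongation factors bind, had 265, 268 and 294 FPKM in PDGF-NS, 182, 139 and 164 FPKM in IGF-NS, and 141, 140 and 134 FPKM in LH-NS. All PDGF-NS libraries lay above the rest, and IGF-NS overlapped LH-NS. Its log2 difference from LH-NS was 0.99 ± 0.12, with adjusted p = 0.000277. Rpl34 had 777, 736 and 830 FPKM in PDGF-NS, 604, 583 and 480 FPKM in IGF-NS, and 356, 422 and 438 FPKM in LH-NS, so that no 2 sets overlapped. It rose by 0.95 ± 0.14 (adjusted p = 0.000671). Rpl17, at the rim of the exit tunnel, had 2523, 3131 and 3179 FPKM in PDGF-NS, 2173, 1662 and 1954 FPKM in IGF-NS, and 1727, 1736 and 1670 FPKM in LH-NS. The PDGF-NS libraries again lay above both other sets, and the rise over LH-NS was 0.78 ± 0.15 (adjusted p = 0.00345). Rpl30, which also binds selenocysteine elements in mammals, had 33.4, 46.5 and 46.1 FPKM in PDGF-NS, 36.1, 35.8 and 28.8 FPKM in IGF-NS, and 21.8, 23.5 and 25.8 FPKM in LH-NS. Here the PDGF-NS and IGF-NS libraries overlapped with each other and lay above LH-NS, with a rise of 0.79 ± 0.16 in PDGF-NS (adjusted p = 0.00429).

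In the small subunit, Rps6, the substrate of S6 kinase, had 348, 385 and 409 FPKM in PDGF-NS, 288, 221 and 253 FPKM in IGF-NS, and 174, 214 and 205 FPKM in LH-NS. The 3 sets did not overlap, and PDGF-NS exceeded LH-NS by 0.94 ± 0.14 on the log2 scale (adjusted p = 0.000784). Rps24, mutated in some families with Diamond-Blackfan anaemia in humans, had 166, 153 and 195 FPKM in PDGF-NS, 154, 193 and 107 FPKM in IGF-NS, and 73.6, 99.8 and 95.1 FPKM in LH-NS. All libraries of both other sets exceeded those of LH-NS, and PDGF-NS was higher by 0.93 ± 0.21 (adjusted p = 0.00806). Rps21 had 35.2, 44.9 and 38.3 FPKM in PDGF-NS, 22.1, 10.3 and 25.0 FPKM in IGF-NS, and 17.4, 11.7 and 16.7 FPKM in LH-NS. IGF-NS enclosed LH-NS, and PDGF-NS lay above both, by 1.33 ± 0.29 over LH-NS (adjusted p = 0.00608).

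In PDGF-NS against LH-NS, 11 genes were called under every alternative that tested them, among them these 8 and Rps27l3. Rps27l3 stayed under 4 FPKM in every library and was listed at 0 in LH-NS library 1, so it is given only by its values of 1.78, 3.26 and 2.36 FPKM in PDGF-NS, 2.04, 1.72 and 0.404 FPKM in IGF-NS, and 0, 0.560 and 0.458 FPKM in LH-NS. The lowest PDGF-NS library exceeded the highest LH-NS library.

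**Figure D5:**
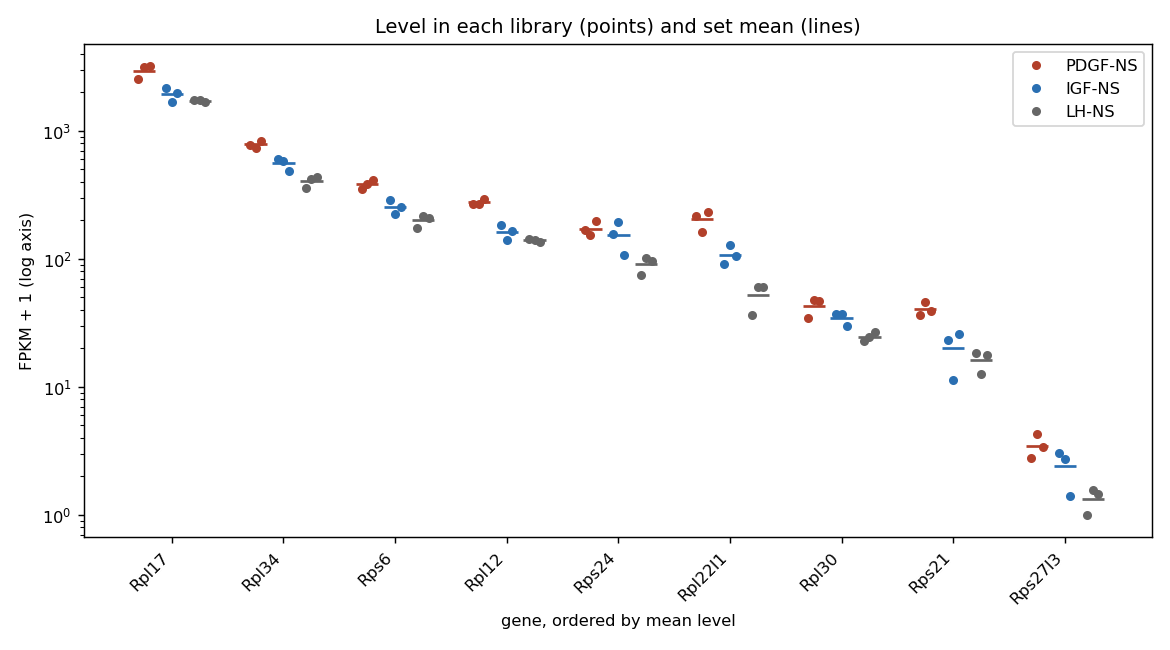
FPKM + 1 in each library (points, log axis) and the mean of each set (lines) for 9 of the 11 genes called higher in PDGF-NS than in LH-NS under every alternative that tested them, ordered by mean level. In each gene the 3 PDGF-NS points lie above the 3 LH-NS points, as for Rpl22l1 with 160 to 231 against 35.7 to 59.5 FPKM.

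The other 12 calls were less firm. Rps13, a rRNA-binding protein of the small subunit, had 7953, 8011 and 9582 FPKM in PDGF-NS, 6990, 6270 and 6098 FPKM in IGF-NS, and 4492, 5862 and 5435 FPKM in LH-NS, in sets that did not overlap. Its rise of 0.70 ± 0.16 (adjusted p = 0.00821) held without each single library and ended under quantile normalization and without the filter on low values, where the highest adjusted p was 0.0892. Rpl13a and Rps25 rose by 0.61 ± 0.15 and 0.85 ± 0.22 (adjusted p = 0.0119 and 0.0160). They lost the call only without PDGF-NS library 3, at adjusted p = 0.0572 and 0.0624. Rpl4, whose loop reaches into the exit tunnel, lost it without PDGF-NS library 2 or 3, and Rpl24, at a bridge between the subunits, without PDGF-NS library 1 or 3. Rps14, a protein of the small subunit's platform whose loss underlies a form of human anaemia, was at 9.44, 6.79 and 9.94 FPKM in PDGF-NS, 6.20, 2.49 and 5.64 FPKM in IGF-NS, and 4.22, 1.40 and 4.73 FPKM in LH-NS. Its rise of 1.21 ± 0.36 (adjusted p = 0.0280) ended without PDGF-NS library 1 or 3 or LH-NS library 2, under quantile normalization and without the filter on low values.

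Rpl10, Rpl3, Rpl19, Rps3 and Rps20 were called at adjusted p from 0.0297 to 0.0400, with rises of 0.47 to 0.81. Each lost the call without PDGF-NS library 2, without PDGF-NS library 3, without LH-NS library 1 and under median-ratio scaling. Rpl3, Rpl19, Rps3 and Rps20 also lost it without PDGF-NS library 1, Rpl10 and Rpl19 without LH-NS library 2, and Rpl10, Rpl3, Rps3 and Rps20 without LH-NS library 3. Rpl10, which joins the large subunit late and reaches towards the catalytic centre, had 2772, 3060 and 3168 FPKM in PDGF-NS, 2679, 2033 and 2446 FPKM in IGF-NS, and 2177, 2136 and 2187 FPKM in LH-NS. Its PDGF-NS libraries lay above both other sets, by 0.47 ± 0.14 over LH-NS. Rpl3, close to the same centre, averaged 2610 ± 115 FPKM in PDGF-NS, 2358 ± 375 FPKM in IGF-NS and 1858 ± 165 FPKM in LH-NS (SD, n = 3 each).

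By role, the exit tunnel genes held 3 calls among 8 tested, namely Rpl4, Rpl17 and Rpl19. That was 37.5%, against 29.1% of the 79 and 20.7% of all genes tested that rose. Their median difference was 0.45, against 0.48 for the 79, and under median-ratio scaling 2 were called. These lists are small, and differences between them and the 79 were not tested. Of the 9 tested proteins that bind MDM2, the p53 inhibitor, Rps3 and Rps14 were called, a share of 22.2% near the 20.7% of all genes. All 9 differences were positive, with a median of 0.53. Rpl5 and Rpl11, with 5S rRNA, carry the best known contacts with MDM2. They had differences of 0.48 ± 0.20 and 0.49 ± 0.19 and missed the threshold, at adjusted p = 0.0930 and 0.0718. Rpl11 had 1398, 1285 and 1684 FPKM in PDGF-NS, 1479, 1215 and 1058 FPKM in IGF-NS, and 831, 1126 and 1175 FPKM in LH-NS, so its PDGF-NS and LH-NS libraries did not overlap. Of 17 tested Diamond-Blackfan anaemia genes, 2 were called, Rps24 among them, a share of 11.8%, below the 20.7% of all genes. All 17 differences were positive, with a median of 0.425. Rps19, the gene most often mutated in that disease, averaged 6.32 ± 1.28 FPKM in PDGF-NS, 6.37 ± 0.792 FPKM in IGF-NS and 6.20 ± 1.85 FPKM in LH-NS (SD, n = 3 each).

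The stalk proteins, which recruit elongation factors, gave 0 calls of 3 in each comparison. Of all genes tested, 20.7% rose in PDGF-NS against LH-NS, 17.4% in IGF-NS against LH-NS and 8.33% in PDGF-NS against IGF-NS. A count over 3 genes is too small to read against these shares. Rplp0 had 9929, 11327 and 11791 FPKM in PDGF-NS, 11720, 8848 and 10758 FPKM in IGF-NS, and 12320, 10983 and 9963 FPKM in LH-NS. The 3 sets overlapped, and the difference of PDGF-NS from LH-NS was -0.01 ± 0.17 (adjusted p = 0.979). Rplp1 averaged 3744 ± 493 FPKM in PDGF-NS, 3429 ± 946 FPKM in IGF-NS and 3722 ± 450 FPKM in LH-NS. Rplp2, at 1.32, 0 and 6.52 FPKM in the IGF-NS libraries, was too uneven to read. Rplp0, Rpl13a and Rps18 are often used as reference genes in quantitative PCR. Of these Rpl13a rose in PDGF-NS, and Rps18 averaged 518 ± 42.2 FPKM in PDGF-NS, 420 ± 42.5 FPKM in IGF-NS and 483 ± 31.9 FPKM in LH-NS without a call. Rpl41, the most abundant member, spanned 11793 to 15098 FPKM in PDGF-NS, 9260 to 15631 FPKM in IGF-NS and 7635 to 12244 FPKM in LH-NS (adjusted p = 0.248 for PDGF-NS against LH-NS). The lowest difference was that of Rpsa, at -0.41 ± 0.26 (adjusted p = 0.254).

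IGF-NS cells differed less from LH-NS cells in these genes. In IGF-NS, 4 of the 79 rose and 0 fell (5.06% higher), while 17.4% of all genes tested rose and 7.48% fell, so the share among ribosomal protein genes lay below the background. The median log2 difference was 0.18, against 0.15 over all genes tested, and under median-ratio scaling these medians were 0.02 and 0.01. Under quantile normalization they were 0.21 and 0.02, with 4 of the 79 higher, against 1222 higher of all genes tested. In PDGF-NS against LH-NS the medians were then 0.29 and -0.001. How far the 79 stood from all genes in IGF-NS thus depended on the scaling. Rpl22l1 rose by 1.06 ± 0.22 (2.07-fold, adjusted p = 0.00802) and kept the call under all 22 alternatives, with adjusted p from 0.00759 to 0.0308. Rps24 rose by 0.72 ± 0.21 (adjusted p = 0.0326), Rpl30 by 0.48 ± 0.16 (adjusted p = 0.0497) and Rpl34 by 0.45 ± 0.14 (adjusted p = 0.0371). These 3 lost the call under median-ratio scaling, with the replicate numbers as a block and without any 1 of IGF-NS library 1, IGF-NS library 2, LH-NS library 1 or LH-NS library 3. Rpl30 and Rpl34 also lost it without PDGF-NS library 2 or 3 or LH-NS library 2. Under median-ratio scaling the calls became 1 higher and 3 lower, the lower ones being Rpl27a, Rps10l1 and Rps18. Without the 2 libraries that stood apart, 5 genes were higher and 0 lower, against 1936 higher and 934 lower of all genes tested.

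Set directly against IGF-NS, PDGF-NS had 6 higher and 0 lower of the 79 genes (7.59% higher), near the 8.33% higher and 7.55% lower of all genes tested. The median was 0.23, against -0.02 over all genes, and 73 of the 79 differences were positive. Rescaling the libraries to one common sum gave medians of 0.10 for the 79 and -0.14 for all genes, rescaling to the sum of all other genes gave 0.11 and -0.13, and quantile normalization gave 0.12 and -0.03. Rpl12 differed by 0.77 ± 0.12 (1.71-fold, adjusted p = 0.00223) and kept the call under all 22 alternatives. Rps21 differed by 1.09 ± 0.29 (adjusted p = 0.0284), Rpl22l1 by 0.91 ± 0.22 (adjusted p = 0.0210), Rpl17 by 0.61 ± 0.15 (adjusted p = 0.0210), Rps6 by 0.59 ± 0.14 (adjusted p = 0.0184) and Rpl34 by 0.50 ± 0.14 (adjusted p = 0.0355). In each of the 6 genes every PDGF-NS library exceeded every IGF-NS library. All 5 lost the call without PDGF-NS library 3. Rpl17 and Rps6 also lost it without PDGF-NS library 2 or IGF-NS library 2, Rps21 without PDGF-NS library 1 or 2, and Rpl22l1 without library 1 of PDGF-NS or libraries 1 or 3 of IGF-NS. Rpl34 lost it without any 1 of the PDGF-NS or IGF-NS libraries or LH-NS library 2. Without the 2 libraries that stood apart, 7 were higher and 1, Rpl13, was lower, against 1220 higher and 1059 lower of all genes tested. Rpl34 and Rpl22l1 were called in all 3 comparisons, which share libraries.

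Paralogues that replace a core protein varied in level. Besides Rpl22l1, which at a mean of 120 FPKM stood above Rpl22, the p53-induced Rps27l averaged 70.8 ± 21.2 FPKM in PDGF-NS, 67.3 ± 29.4 FPKM in IGF-NS and 38.5 ± 14.5 FPKM in LH-NS, and its parent Rps27 averaged 602 ± 79.0, 519 ± 100.4 and 402 ± 98.0 FPKM in the same order of sets (SD, n = 3 each). Neither was called, at adjusted p = 0.0828 for Rps27l and 0.0535 for Rps27 in PDGF-NS against LH-NS. Rpl7l1, a relative of Rpl7, had a mean of 27.2 FPKM and no call, with Rpl7 at 623 FPKM and no call. Rpl36al, outside the naming rule, had 141 FPKM while Rpl36a was listed at 0. The testis or muscle paralogues Rpl10l and Rpl39l were listed at 0, Rpl3l had a mean of 0.141 FPKM and Rps4y2 0.167 FPKM, against 564 FPKM of Rps4x.

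Further rows under the same symbols gave a second reading. Of the 79 symbols, 23 had more than 1 tested row, with 28 tested rows beside the ones used. Of these 28, 8 were higher and 0 lower in PDGF-NS than in LH-NS, 3 and 0 in IGF-NS than in LH-NS, and 2 and 1 in PDGF-NS than in IGF-NS. The shares higher were 28.6%, 10.7% and 7.14%, against 20.7%, 17.4% and 8.33% of all genes tested, and under median-ratio scaling 5 were higher in PDGF-NS and 2 in IGF-NS than in LH-NS, and 4 were higher and 1 lower in PDGF-NS than in IGF-NS. The second Rpl12 row had 39.8, 37.5 and 37.1 FPKM in PDGF-NS, 26.5, 28.0 and 25.6 FPKM in IGF-NS, and 21.2, 19.9 and 18.8 FPKM in LH-NS. The second Rps24 row averaged 114 ± 16.2, 79.5 ± 3.61 and 61.5 ± 2.47 FPKM in the same order of sets (SD, n = 3 each). Both were higher in PDGF-NS than in LH-NS, by 0.90 ± 0.11 and 0.88 ± 0.13 (adjusted p = 0.000211 and 0.000649). The second Rps6 row was higher by 1.40 ± 0.24 (adjusted p = 0.00171). Of the 8 rows higher in PDGF-NS than in LH-NS, 6 shared the call with the row used. The second rows of Rps27a and Rpl10a, up by 1.41 (adjusted p = 0.000539) and 0.42 (adjusted p = 0.0348), did not. In IGF-NS against LH-NS 0 of the 3 did. There the second Rps24 row was not called (adjusted p = 0.0596), unlike the row used. A further Rpl38 row had 4.38, 5.66 and 6.98 FPKM in IGF-NS and 0 in the other libraries. Reads of copies cannot be told from reads of the parent here, so these rows are no independent measurement.

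The genes around the ribosomal proteins were counted from lists of known roles. Of 21 tested genes whose mRNAs also carry a TOP tract, 5 rose and 1 fell in PDGF-NS against LH-NS, with a median difference of 0.25, and 3 rose and 1 fell in IGF-NS against LH-NS, with a median of 0.05. The shares that rose, 23.8% and 14.3%, stood against the 20.7% and 17.4% of all genes tested. Under median-ratio scaling the medians were 0.12 and -0.11, with 4 and 2 genes higher and 1 lower in each. Btf3, which binds nascent chains, averaged 704 ± 46.5 FPKM in PDGF-NS, 589 ± 230.0 FPKM in IGF-NS and 313 ± 30.8 FPKM in LH-NS, and the initiation factor subunit Eif3e 42.9 ± 3.02, 39.8 ± 9.08 and 21.4 ± 4.23 FPKM in the same order (SD, n = 3 each). Both rose in both comparisons with LH-NS, Btf3 by 1.17 and 0.85 and Eif3e by 0.99 and 0.86. The intermediate filament gene Vim fell in both, by 0.39 in PDGF-NS and 0.67 in IGF-NS. The elongation factors Eef1a1 and Eef2, with differences of 0.30 and 0.18 in PDGF-NS against LH-NS, were not called.

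Of 29 tested initiation factors, 6 rose and 1 fell in PDGF-NS against LH-NS, and 5 rose and 0 fell in IGF-NS against LH-NS. The shares that rose were 20.7% and 17.2%, against 20.7% and 17.4% of all genes tested. Eif4g2, which serves cap-independent initiation, rose in both, by 0.91 and 0.83, and Eif4g1, the scaffold of the cap complex, fell by 0.84 in PDGF-NS. Under median-ratio scaling the initiation factors had 3 higher and 3 lower in PDGF-NS and 3 higher and 0 lower in IGF-NS. Of 21 genes of mTORC1, S6 kinase and TOP control, 1 rose (4.76%) and 0 fell in PDGF-NS against LH-NS. Of all genes tested, 20.7% rose and 10.2% fell. Under median-ratio scaling 1 of the 21 rose and 3 fell. The gene that rose was Pdcd4, an inhibitor of the helicase eIF4A that S6 kinase marks for degradation. It averaged 26.7 ± 2.83 FPKM in PDGF-NS, 15.3 ± 1.66 FPKM in IGF-NS and 9.11 ± 1.96 FPKM in LH-NS (SD, n = 3 each). It rose by 1.47 in PDGF-NS and 0.70 in IGF-NS against LH-NS. Larp1, Mtor and Rps6kb1, which encode the TOP-binding repressor and the kinases, were not called in any of the 3 comparisons. In IGF-NS against LH-NS, 2 of the 21 rose and 1 fell (9.52% higher, against 17.4% of all genes tested). Besides Pdcd4, Tbc1d7, a subunit of the TSC complex that restrains mTORC1, rose by 0.69. Rheb, the activator of mTORC1, fell by 0.55.

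Of 13 tested genes for import of ribosomal proteins and late subunit maturation, 0 rose and 2 fell in PDGF-NS against LH-NS. Of all genes tested, 20.7% rose and 10.2% fell. Bysl, needed for the small subunit, averaged 11.4 ± 3.02 FPKM in PDGF-NS, 17.0 ± 3.87 FPKM in IGF-NS and 26.8 ± 3.96 FPKM in LH-NS (SD, n = 3 each) and fell by 1.19 in PDGF-NS (adjusted p = 0.00259). Grwd1, a chaperone of Rpl3, fell by 0.56 (adjusted p = 0.0296). Sbds, which helps to release eIF6 from the large subunit, fell by 0.60 in IGF-NS against LH-NS. Of 76 tested mitochondrial ribosomal protein genes, 20 rose and 1 fell in PDGF-NS and 20 rose and 0 fell in IGF-NS against LH-NS, with medians of 0.29 and 0.31. The share that rose was 26.3% in each, against 20.7% and 17.4% of all genes tested. Under median-ratio scaling those counts were 12 higher and 4 lower, and 8 higher and 1 lower, while the genes higher over all tested numbered 1768 and 1137 and those lower 1678 and 1229. Between PDGF-NS and IGF-NS the mitochondrial set had 1 higher and 1 lower, with a median of -0.04, beside the 6 higher, 0 lower and median of 0.23 of the cytosolic set. A difference between those 2 sets of genes was not tested.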

How the data were processed

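Trizol RNA was made into 9 libraries (3 sets of 3) with a SENSE mRNA kit (v2, Lexogen), per the labels' protocols. The authors deposited 1 table of FPKM per gene. GSNAP and Cufflinks were used, per the submitters' processing notes. Tool versions, build and gene models were not given in the sources used here. FPKM is no count, so the reads behind a value are unknown and only relative depth is given. A failed value of 999999999 in 10 cells of 4 genes was left out, as were 2 repeated rows, and 5795 rows had no symbol.

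The 11376 genes averaging 1 FPKM or more entered a single fit in limma 3.58.1 (R 4.3.3). Values were log2(FPKM + 1), a scale that understates the change of low genes. The variance followed the mean, the set was the only term, and within each of 3 two-sided contrasts p was adjusted after Benjamini and Hochberg. An adjusted p under 0.05 was a call. The script was tested on simulated data. Folds are ratios of mean FPKM. Members and lists were chosen with earlier results of these data known. Genes named are those with the largest called changes and the highest and lowest means, the paralogues with their parents, reference genes, members with a 0 or a repeated symbol, and of each list up to 4 called genes. Rps19, Eef1a1, Eef2, Larp1, Mtor, Rps6kb1, Rpsa, Rps26, Rps25, Rpl24 and Rps20 were added after their values were seen. Other pseudocounts, filters, scalings, a replicate block, a fit without the trend, sums of rows and leaving out each library were the 22 alternatives. Values of 3 members are counted but not reported here gene by gene.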

Additional observations from a re-analysis of the deposited data

How the results depend on the processing

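None of the 22 alternatives reversed the sign of a called difference named here or of a median over the 79 genes. Without the filter on low values, 15 ribosomal protein genes were called in PDGF-NS against LH-NS, 1 in IGF-NS against LH-NS and 4 in PDGF-NS against IGF-NS. All were higher, against 2384, 1853 and 965 higher of the 16202 genes then tested. When only the 6 libraries compared were fitted, 1 was called higher in IGF-NS against LH-NS, against 1328 of all genes tested. With the replicate block the 3 counts were 18, 1 and 5, all higher, against 2149, 1699 and 822 higher of all genes tested. Leaving out each library in turn gave 12 to 26 calls in PDGF-NS against LH-NS, lowest without PDGF-NS library 3. It gave 1 to 7 in IGF-NS against LH-NS, lowest without IGF-NS library 1, IGF-NS library 2 or LH-NS library 1 and highest without IGF-NS library 3. It gave 1 to 10 in PDGF-NS against IGF-NS, lowest without PDGF-NS library 3 and highest without LH-NS library 1. The medians of the 79 genes then ran from 0.29 to 0.55, from 0.04 to 0.26 and from 0.16 to 0.32, and the counts over all genes from 2374 to 3739, from 1757 to 2935 and from 1014 to 2143. Under quantile normalization the summed FPKM of the 79 genes averaged 100450 in PDGF-NS, 104657 in IGF-NS and 92985 in LH-NS. As deposited these sums were 111649, 96616 and 89379, so the order of PDGF-NS and IGF-NS was reversed. The calls were then 16, 4 and 5, all higher, against 1695, 1222 and 954 higher of all genes tested. Without both LH-NS library 1 and IGF-NS library 3, added after seeing the data, the counts were 25, 5 and 8 of the 79 and 3718, 2870 and 2279 of all genes. The causes of these shifts were not tested. Same-numbered libraries correlated at -0.28 to 0.25 in their deviations from the set means, with 2 of 9 pairs over 0.1. In 1 of 9 cases a library correlated best with its own number in the other set. With 3 libraries a set these values cannot show whether the numbers pair the samples. FPKM without counts limits the lowest genes most: Rplp2, Rps27l3 and Rps19l1 stood under 5 FPKM on average, and a listed 0 there can be a failed estimate.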
